A study of Mus musculus with 2 samples.

Results

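C1q is built from 3 chains, encoded by C1qa, C1qb and C1qc. These 3 of the 32285 genes counted, chosen by name, were followed through every class of cell that could be told apart in brain cells sorted as CD45lowCD11b+. Brains of 6 male Disc1WT/WT mice and of 6 male Disc1LI/LI littermates, all 23 weeks old, were pooled by genotype. Disc1LI/LI mice are homozygous for the constitutive Disc1 locus impairment allele, so cells other than microglia lack the intact gene as well. Both pools were digested in the presence of actinomycin D, an inhibitor of RNA synthesis, so this treatment is common to the genotypes. Each genotype gave 1 library of single-cell 3′ counts, and the labels do not say which of the droplet chips listed was used for which library. Differences between the genotypes can therefore be measured but not tested, and genotype, pool, chip and library cannot be told apart.

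C1q is the recognition protein of the classical complement pathway. Its A, B and C chains wind into a collagen-like stem with globular heads, which bind antibody complexes, dying cells and some synapses, and the bound protein activates the proteases C1r and C1s, which cleave C4 and C2 and so lead to deposition of C3. In the brain, microglia are the main source of C1q, and complement-tagged synapses can be engulfed by microglia through complement receptor 3, the Itgam and Itgb2 product.

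The 3 genes sit side by side on the minus strand of mouse chromosome 4 (GRCm38/mm10, GENCODE annotation), within 18675 bases in all. C1qa (ENSMUSG00000036887) spans chr4:136895917-136898803, C1qc (ENSMUSG00000036896) spans chr4:136889804-136893065, and C1qb (ENSMUSG00000036905) spans chr4:136880129-136886187. They are short genes of 2887, 3262 and 6059 bases. Since the chains followed each other across the classes, the sequence just before the annotated starts of C1qb and C1qc is shown, from RefSeq (GRCm38.p6), read 5′ to 3′ on the minus strand at chr4:136886201-136886450 and chr4:136893066-136893164, with 2 of the 3 genes matched in the promoter table. Capitals mark the core letters bound by the myeloid factor PU.1, GAGGAA or TTCCTC on the other strand, and a MAF half-site, TGCTGA or TCAGCA.
C1qb: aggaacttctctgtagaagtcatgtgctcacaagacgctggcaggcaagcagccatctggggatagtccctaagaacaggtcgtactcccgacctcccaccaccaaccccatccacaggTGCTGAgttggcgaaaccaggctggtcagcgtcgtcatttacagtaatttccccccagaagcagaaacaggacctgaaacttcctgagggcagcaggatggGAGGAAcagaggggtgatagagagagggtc
C1qc: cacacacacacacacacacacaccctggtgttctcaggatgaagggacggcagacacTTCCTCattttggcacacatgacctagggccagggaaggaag
In C1qb the GAGGAA match lay 25 to 30 bases and the TGCTGA match 126 to 131 bases before the end of the window, without overlap. In C1qc the TTCCTC match lay 37 to 42 bases before the end of the window. Of 32851 RefSeq promoters, 23.3% held the PU.1 letters on either strand and 16.1% the MAF letters in a window of 250 bases, and 9.91% and 6.43% did so in a window of 99 bases, so the matches are a description of the letters and no more.

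Of 7038 Disc1WT/WT and 7834 Disc1LI/LI barcodes, 7032 and 7817 passed the limits of 200 or more genes and a mitochondrial share of 10% or less of their UMIs (unique molecular identifiers, each counting 1 captured RNA). The libraries held 33601957 and 47731571 UMIs, and 12 barcodes occurred in both. Disc1 itself had 642 UMIs in the Disc1WT/WT library, 19.1 CPM (17.7 to 20.6), and 22 in the Disc1LI/LI library, 0.461 CPM (0.289 to 0.698), where CPM is the number of UMIs of a gene for every 1000000 UMIs of the cells named. Although every sample is labelled as microglia, the libraries differed in what they held. Cells with at least 3% of UMIs from S100a8 and S100a9, called neutrophils here, were 116 (1.65%) of the Disc1WT/WT cells and 3622 (46.3%) of the Disc1LI/LI cells. Microglia, with at least 0.5% of UMIs from P2ry12, Gpr34, Tmem119, Siglech, Fcrls and Olfml3 and under 1% from S100a8 and S100a9, were 6072 (86.4%) and 1943 (24.9%). Border macrophages, with a UMI of at least 3 of Mrc1, Pf4, Ms4a7, Cbr2, Cd163 and Folr2, were 294 and 48 cells, and 550 and 2204 other cells remained. Of the markers that the rules did not use, 1 is given for each class. Sparc, a matrix protein gene typical of microglia in the brain's myeloid cells, reached 3931 and 4608 CPM in microglia, against 1580 and 1119 in border macrophages. The hyaluronan receptor Lyve1 reached 454 and 266 in border macrophages and 1.05 and 0.493 in microglia, and the neutrophil protein Retnlg 17430 and 23078 in neutrophils and 4.22 and 170 in microglia. These genes do not stand for their whole lists. In microglia all 7 border macrophage markers outside the rule made up 0.0188% and 0.0184% of UMIs, and all 8 such neutrophil markers 0.0156% and 0.0607%.

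Microglia held the highest C1q level of these classes in both libraries. The 3 chains together made up 27249 CPM (exact Poisson 95% interval 27189 to 27310) in Disc1WT/WT microglia and 35888 (35758 to 36019) in Disc1LI/LI microglia, so that 2.72% and 3.59% of all microglial UMIs came from these 3 genes. Border macrophages stood close behind with 24548 (24295 to 24803) and 25738 (25124 to 26364). Neutrophils had 5606 (5428 to 5788) and 1359 (1343 to 1374), and the other cells 10954 (10831 to 11078) and 1964 (1944 to 1985). Intervals are exact Poisson for levels and exact binomial for shares. Those of levels and of shares of UMIs cover counting error only and not the spread between cells. Those of shares of cells take each cell as an independent draw. None of them covers the spread between mice.

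Within each library the order microglia, border macrophages, other cells, neutrophils was the same. Border macrophages reached 90.1% (89.1 to 91.0) of the microglial level in Disc1WT/WT and 71.7% (70.0 to 73.5) in Disc1LI/LI, log2 ratios of -0.15 and -0.48. Neutrophils reached 20.6% (19.9 to 21.2) and 3.79% (3.74 to 3.83), log2 ratios of -2.28 and -4.72. The other cells were a mixture. Among them, antigen-presenting cells, T and NK cells, patrolling monocytes and monocytes were set apart by a UMI of at least 3 genes of their own marker lists. A cell took the list with the most such genes. Cells that met no list, or tied between lists, are called unassigned here. The 196 and 283 unassigned cells held the largest part of the C1q UMIs of the other cells, 13891 of 30249 and 13320 of 34837, at 18287 and 7645 CPM.

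**Figure D1:**
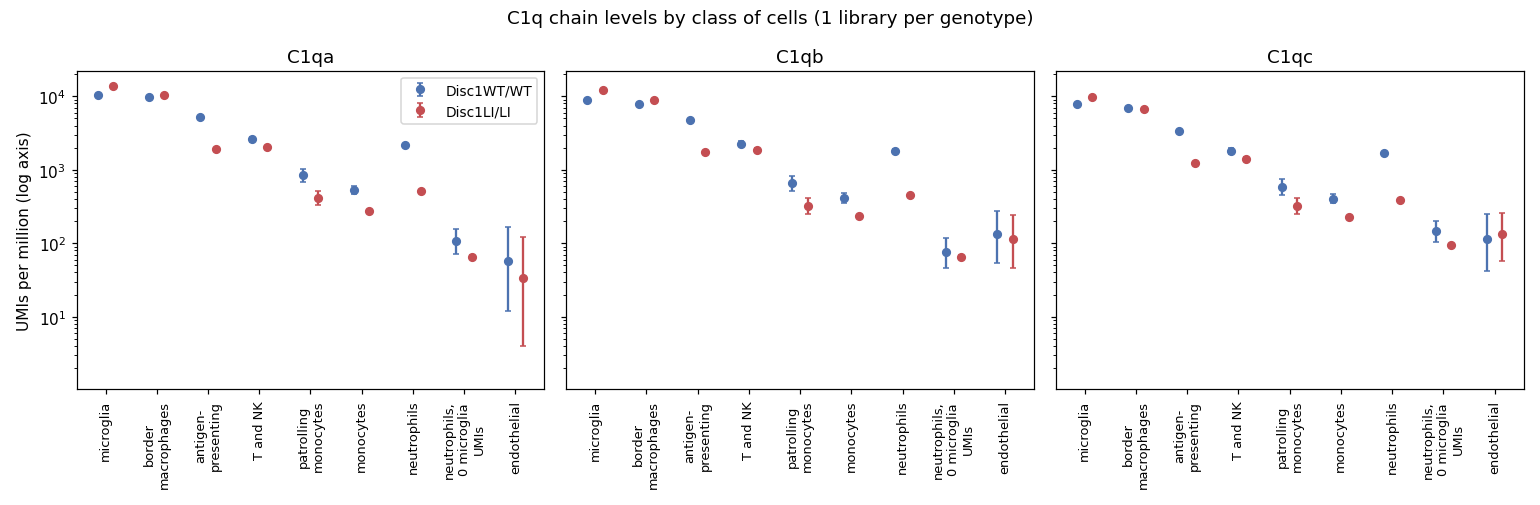
Level in CPM (log axis) of C1qa, C1qb and C1qc in each class of cells, Disc1WT/WT in blue and Disc1LI/LI in red, 1 library each, with exact Poisson 95% intervals that cover counting error only. In all 3 panels microglia and border macrophages stand at the top, at 6635 to 14052 CPM a chain.

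Nearly every microglial cell carried all 3 chains. A UMI of each was found in 6059 of 6072 Disc1WT/WT microglia, 99.8% (99.6 to 99.9), and in 1939 of 1943 Disc1LI/LI microglia, 99.8% (99.5 to 99.9). Of the border macrophages 291 of 294 and 47 of 48 carried all 3. A single UMI is a weak criterion in these data, because endothelial cells, which are not known to make C1q, held a C1q UMI in 47.4% of 19 Disc1WT/WT cells and in 13 of 26 Disc1LI/LI cells, at a median depth of 2340 and 1772 UMIs against 4258 and 3779 in microglia. All cells were therefore also thinned to 1000 UMIs, with 100 and 17 shallower microglia left out. A C1q UMI was then still seen in all of the 5972 and 1926 microglia, at a mean of 27.45 and 36.35 UMIs per cell. The same thinning left one in 48.7% (39.3 to 58.2) of Disc1WT/WT and 24.96% (23.6 to 26.4) of Disc1LI/LI neutrophils, from 77.6% and 62.6% before thinning. Endothelial cells had 4 of 16 (7.27 to 52.4%) and 5 of 21 (8.22 to 47.2%). These are too few cells to place the neutrophil shares against that of cells lacking the genes. After the same thinning, 19.26% (17.15 to 21.51) of 1298 Disc1LI/LI monocytes held a C1q UMI, below the neutrophils of that library. Its T and NK cells, with 46.72% (38.15 to 55.43) of 137 cells, lay above the neutrophils.

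Between the genotypes, C1q was higher in the microglia of the Disc1LI/LI library, chain by chain. C1qa, whose product is joined to the B chain by a disulfide bond, had 10471 CPM (10433 to 10508) in Disc1WT/WT and 14052 (13971 to 14134) in Disc1LI/LI microglia, with a log2 ratio of 0.42 (0.41 to 0.43). C1qb stood at 9012 (8977 to 9047) in the first and at 12132 (12056 to 12208) in the second, which is 0.43 (0.42 to 0.44) on the log2 scale. C1qc, whose product pairs with a further C chain, reached 7766 (7734 to 7799) and 9704 (9637 to 9772), with a log2 ratio of 0.32 (0.31 to 0.33). The sum of the chains was 1.32-fold higher, a log2 ratio of 0.40 (0.39 to 0.40).

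A gene was called here when its log2 ratio was at least 0.3219 in size and it had at least 50 CPM in 1 of the libraries. C1qa at 0.4244 and C1qb at 0.4289 passed this limit, and C1qc at 0.3214 stayed just short of it, so 2 of 3 chains were called higher. Of all 3565 genes of that level in microglia, 245 were called higher, 6.87%, and 1233 were called lower, 34.6%. The median log2 ratio of these genes was -0.13. Of the 3565 genes, 117, 113 and 246 had a higher ratio than C1qa, C1qb and C1qc. TMM scaling, which centres most genes near 0, gave 0.53 for the sum of the chains and called all 3 of them, with 680 genes higher and 837 lower in all.

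Gene length went along with the genotype ratio in microglia. The genes tested were divided by length into 4 groups of 891. In the shortest group, up to 9054 bases, the median log2 ratio was 0.20 and 20.1% were called higher. The median was -0.0062 in the next group, -0.27 in the third and -0.47 in the longest. All 3 C1q genes belong to the shortest group, and their ratios of 0.32 to 0.43 lie above its median. The part of gene length in the C1q difference was not tested.

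Markers of other cells, depth and RNA quality were compared in the same microglia. The neutrophil genes S100a8 and S100a9 made up 0.0028% of the UMIs of Disc1WT/WT microglia and 0.0688% of those of Disc1LI/LI microglia, and the further 8 neutrophil markers, all with UMIs in both, 0.0156% and 0.0607%. The 8 monocyte markers made up 0.0020% and 0.0229%, the 8 antigen-presenting markers 0.0377% and 0.0665%, and the 6 border macrophage genes of the rule 0.0029% and 0.0023%, with Cd163 at 0 in Disc1LI/LI. The nuclear RNA Malat1 made up 2.88% of the summed UMIs in both. Its 10th percentile over cells was 1.66% in Disc1WT/WT and 0.907% in Disc1LI/LI, and 523 of 6072 and 298 of 1943 cells had under 1.5%. Mitochondrial genes made up 0.937% and 0.801%. Median depth was 4258 and 3779 UMIs per cell, with a median of 1953 and 1692 genes. Without cells holding any S100a8 or S100a9 UMI, which kept 5336 of 6072 but only 157 of 1943 cells, the log2 ratio of the summed chains was 0.46. Without cells holding any Cd74 or H2-Aa UMI, which kept 4961 and 1469 cells, it was 0.42. The part of these markers, of depth and of RNA quality in the difference was not tested.

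Most Disc1LI/LI microglia lay above the typical Disc1WT/WT cell. The median Disc1WT/WT microglial cell gave 2.71% of its UMIs to C1q, with 2.07% at the 10th and 3.45% at the 90th percentile. In Disc1LI/LI the median was 3.59%, with 2.68% and 4.65% at the same percentiles. Of the Disc1LI/LI microglia, 1737 of 1943, 89.4% (87.9 to 90.7), lay above the Disc1WT/WT median. The spread between cells was wider as well, since beyond counting error the coefficient of variation of the summed chains was 16.6% in Disc1WT/WT and 22.5% in Disc1LI/LI. The part of other cells' RNA in this spread was not tested.

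**Figure D2:**
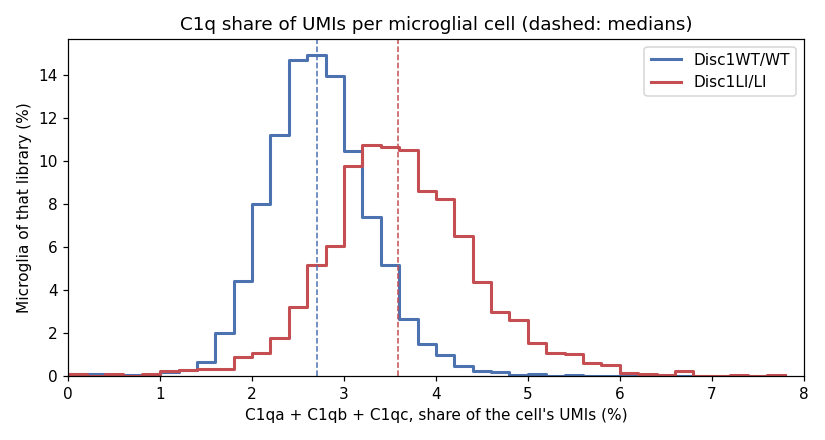
Histogram of the share of a microglial cell's UMIs from C1qa, C1qb and C1qc together (x, percent, in bins of 0.2), as percent of the microglia of each library (y), with dashed lines at the medians of 2.71% and 3.59%. The Disc1LI/LI curve is moved to the right and is wider.

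The ratio between the libraries grew with how strongly a cell was marked as microglia. Cells were binned by the share of their UMIs from the 6 microglia genes, leaving out border macrophages and cells with 1% or more of S100a8 and S100a9 UMIs. In Disc1WT/WT the summed level was flat across the bins of microglia, from 27037 to 28245 CPM. In Disc1LI/LI the summed level rose from 33140 in cells with 0.5 to 0.75% of microglia-gene UMIs to 38696 in the 16 cells with at least 2%. Between the same 2 bins of Disc1WT/WT, C1qb went from 9592 to 8758, C1qa from 10339 to 11219 and C1qc from 7482 to 8269. The log2 ratio was 0.27 (0.26 to 0.29) in the lowest of these bins and between 0.41 and 0.45 in the others. Just below the microglia limit, at 0.25 to 0.5%, the libraries had 21290 and 21384 CPM, a log2 ratio of 0.0064 (-0.023 to 0.036). In cells without any UMI of the 6 genes they had 2390 and 314, in the opposite direction.

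**Figure D3:**
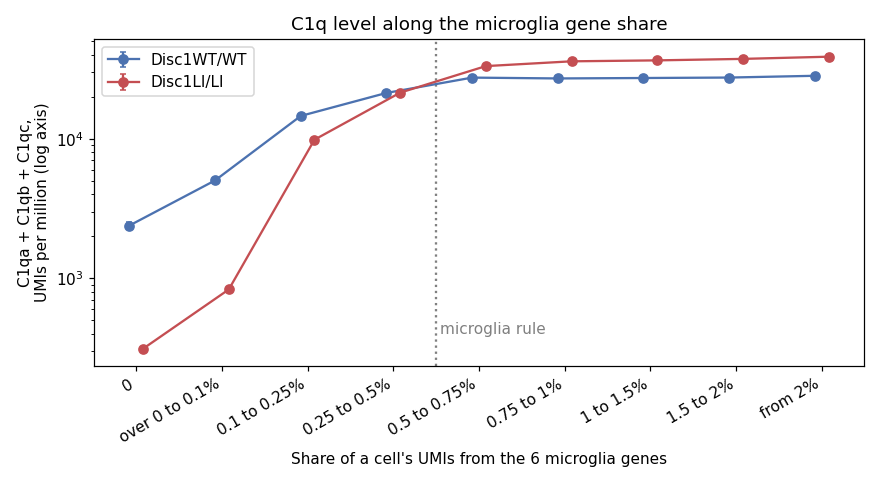
Summed C1q level in CPM (log axis) against the share of a cell's UMIs from the 6 microglia genes, in 9 bins, Disc1WT/WT in blue and Disc1LI/LI in red, with exact Poisson 95% intervals. Right of the dotted line, the limit of the microglia rule, the Disc1LI/LI points lie above the Disc1WT/WT points, and left of 0.25% they lie below.

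The chains tended to go up and down together from cell to cell. After each cell was thinned to 2000 UMIs, which left 5857 and 1837 microglia, the Pearson correlation of the log counts was 0.36 and 0.48 between C1qa and C1qb, 0.28 and 0.43 between C1qa and C1qc, and 0.30 and 0.42 between C1qb and C1qc. The median correlation of the mean of the chains with all genes of at least 50 CPM was -0.016 in both libraries. The lowest in Disc1WT/WT was that of Malat1, -0.20. In Disc1LI/LI the lowest were those of the antigen-presenting markers H2-Aa and Cd74, -0.22 each, whose part in the chain correlations was not tested. These values describe cells of 1 library each, which share depth and free RNA. The split of a cell's C1q UMIs among the chains varied little more than counting gives, since the variance of a chain's count given the cell's C1q total was at most 1.35 times the binomial value in Disc1WT/WT and at most 1.38 times in Disc1LI/LI.

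The genes that followed the C1q mean most closely among microglia overlapped between the libraries. Of the 3443 and 3053 genes ranked, the 15 with the highest correlation were taken in each library. Of these, 10 were shared, which is 10 of 15 of each list. Cst3, the protease inhibitor cystatin C, stood first in both with 0.42 and 0.47, followed by the lysosomal protease Ctss with 0.30 and 0.35 and the membrane protein Itm2b with 0.28 and 0.35. Others were the signalling adaptor Tyrobp (0.22 and 0.28), the tetraspanin Cd81 (0.18 and 0.29), the protease Ctsd (0.17 and 0.30), the Fc receptor chain Fcer1g (0.20 and 0.24), the lipid receptor Trem2 (0.16 and 0.28) and the protease Ctsl (0.12 and 0.18). Cx3cr1, the fractalkine receptor and an equally typical microglial gene, had -0.15 in both libraries. The ranking was not adjusted for level. In microglia Cst3 had 67723 and 85419 CPM and Ctss 8061 and 8026, where 50 CPM was enough for a gene to be ranked. The part of a gene's level in its rank was not tested.

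Across classes of cells, the likeness was measured over 15 points, each a class of at least 50 cells in 1 library. Smaller classes, such as the 48 border macrophages of Disc1LI/LI, were left out. Only the 2934 genes with at least 50 CPM in microglia of both libraries were ranked, and their median correlation was 0.42. Among them the summed chains had their highest Pearson correlations of log2 levels with Fscn1 (0.98), an actin bundler, Hpgds (0.98), a prostaglandin D synthase, and C3ar1 (0.98), the receptor of the C3a fragment. Trem2, Pmepa1, Adap2, Pald1, Bhlhe41 and Rnase4 were also among the 10 highest, all at 0.97 to 0.98. The chains correlated with each other at 0.996 to 0.999 over the same points. These 15 points share 2 libraries and their free RNA. The genes ranked were chosen by their level in microglia, the class with the most C1q, so the values are a description only. The part of microglial RNA held by cells of the other classes was not tested.

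The level of border macrophages differed less between the libraries than that of microglia did, with values that depended on the rule. C1qa had 9802 (9642 to 9963) CPM in 294 Disc1WT/WT and 10306 (9919 to 10705) in 48 Disc1LI/LI cells, a log2 ratio of 0.072 (0.012 to 0.13). C1qb had 7884 and 8797, a ratio of 0.16 (0.093 to 0.22), and C1qc 6862 and 6635, a ratio of -0.049 (-0.12 to 0.025). The sum differed by 0.068 (0.030 to 0.11), and none of the chains was called, where 19.7% of 3423 genes were called higher in border macrophages. Under a rule of at least 4 of the 6 border genes the ratio of the sum was -0.023, and it lay between that and 0.24 under all alternatives run. Whether the genotype difference in border macrophages is smaller than that in microglia was not tested, since each genotype has 1 library.

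Some border macrophages also met the microglia rule, 108 in Disc1WT/WT and 7 in Disc1LI/LI, with 26390 and 27228 CPM. The 186 and 41 that met no other rule had 22911 and 25331, so the level stayed in the same range without cells that met both rules. These cells could still hold microglia-gene UMIs. Border macrophages with at least 3 such UMIs, 260 of 294 and 33 of 48 cells, held 96.0% and 79.8% of the C1q UMIs of the class. Few border macrophages had no UMI of the 6 microglia genes, and these held 15759 (14392 to 17222) CPM in 7 Disc1WT/WT cells and 8463 (7331 to 9721) in 4 Disc1LI/LI cells. The microglia genes of the rule made up 0.534% and 0.280% of the UMIs of border macrophages, the antigen-presenting markers 1.77% and 3.24%, and S100a8 and S100a9 0.0027% and 0.0560%, and their part in the C1q values was not tested. Cells varied more than among microglia, with a coefficient of variation beyond counting of 23.9% in Disc1WT/WT and 39.9% in Disc1LI/LI border macrophages.

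Neutrophils are not known as a source of C1q, and most of their C1q lay in cells that also held microglial RNA. Neutrophils with 0 UMIs of the 6 microglia genes had 329 (263 to 406) CPM in 60 Disc1WT/WT cells and 226 (218 to 234) in 2780 Disc1LI/LI cells. Those with 1 or 2 such UMIs had 673 in 27 cells and 359 in 623 cells. Those with at least 3 had 12654 (12242 to 13076) in 29 cells and 11270 (11129 to 11413) in 219 cells, and their median depth of 8951 and 8630 UMIs was above the 3558 and 3662 of those with 0. Those with at least 3 held 95.5% of the neutrophil C1q UMIs in Disc1WT/WT and 82.7% in Disc1LI/LI. Doublets were not removed, and their part in these values was not tested.

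Microglial genes that were not used in the rule stood in neutrophils at shares of their microglial level that lay below, within and above those of the C1q chains. In Disc1WT/WT neutrophils this share was 20.5%, 19.8% and 21.5% for C1qa, C1qb and C1qc, and 19.25% for Sparc, 19.2% for Trem2 and 20.2% for Cx3cr1, with Slc2a5 at 23.9% and Sall1 at 26.6%. In Disc1LI/LI neutrophils it was 3.71%, 3.73% and 3.96% for the chains and 3.47%, 3.71% and 3.79% for the same 3 genes, with Cst3 at 4.14%, Ctss at 4.61% and Csf1r at 4.95%. Endothelial cells had 306 (175 to 497) and 282 (164 to 451) CPM, and granulocyte-monocyte progenitors of the Disc1LI/LI library 337 (312 to 362) in 79 cells, whatever their microglia-gene UMIs. Neutrophils without microglia-gene UMIs had 329 and 226, so the progenitors lay above those of their own library. These values, 226 to 337, are taken as the background of C1q here, and a class is read as expressing C1q only where it lies clearly above them.

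Monocytes came close to that background once cells with microglial RNA were set aside. Their level was 1349 CPM in 43 Disc1WT/WT cells and 736 in 1300 Disc1LI/LI cells, and 420 (322 to 539) and 166 (156 to 175) in the 19 and 926 of them with 0 microglia-gene UMIs. Patrolling monocytes went from 2096 and 1065 to 520 (375 to 703) and 221 (157 to 304) in the same way. T and NK cells, which are no known source of C1q, went from 6660 and 5308 to 349 (226 to 515) and 598 (516 to 690), the latter above the 226 of neutrophils, so the background was not the same in every class. B and plasma cells were not divided by microglia-gene UMIs, and had 804 in 5 Disc1WT/WT and 3269 in 88 Disc1LI/LI cells. In those 88 cells the median was 2 C1q UMIs per cell and the 90th percentile 69.6. The summed level thus came mostly from a minority of cells and is not read as expression. Of the unassigned cells, the 20 and 108 with 0 microglia-gene UMIs had 2854 (2274 to 3539) and 269 (231 to 311). The 151 and 122 unassigned cells with at least 3 had 22283 and 23324 CPM and held 98.5% and 94.1% of the C1q UMIs of that group.

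Antigen-presenting cells kept a higher summed level, which in Disc1LI/LI came from a minority of cells. Those with 0 microglia-gene UMIs still held 11885 (11106 to 12704) CPM in 26 Disc1WT/WT cells and 1843 (1749 to 1940) in 107 Disc1LI/LI cells, above the 329 and 226 of neutrophils chosen in the same way. These antigen-presenting cells had a median depth of 2254 and 6782 UMIs. Within them C1q lay in cells with a UMI of 1 or 2 border macrophage genes, too few for the border rule. Such cells had 14896 (13908 to 15936) in 21 Disc1WT/WT cells and 5405 (5108 to 5714) in 36 Disc1LI/LI cells. The median cell among them gave 1.74% of its UMIs to C1q in Disc1WT/WT but 0.0302% in Disc1LI/LI, where the 90th percentile was 2.02%, so the typical Disc1LI/LI cell was at background. Cells with none of the 6 border genes had 1302 (806 to 1991) in 5 cells and 374 (325 to 429) in 71 cells. Apoe, abundant in border macrophages, differed in the same way, with 31927 and 6889 CPM in the first and 1240 and 443 in the second. Cd209a, a marker of monocyte-derived dendritic cells, was at 0 in these Disc1WT/WT cells and at 920 to 1345 in those of Disc1LI/LI, so this class differed in its markers between the libraries and its genotype difference is not read further. The cells with 1 or 2 border genes had a median depth of 2221 and 6236 UMIs, against 4407 and 4770 in border macrophages. The border rule and the limit of 0 microglia-gene UMIs depend on a cell's depth, whose part here was not tested.

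The C1q UMIs of microglia were split among C1qa, C1qb and C1qc as 38.4%, 33.1% and 28.5% in Disc1WT/WT and 39.2%, 33.8% and 27.0% in Disc1LI/LI. These are shares of 3′ UMIs and are not a ratio of chains in the protein. The share of C1qc was lower in Disc1LI/LI, 27.0% (26.9 to 27.2) against 28.5% (28.4 to 28.6), and so it was in border macrophages, 25.8% (24.7 to 26.9) against 28.0% (27.5 to 28.4). Neutrophils with at least 3 microglia-gene UMIs were close to the microglial split, with 29.1% (27.6 to 30.6) and 26.2% (25.7 to 26.8) C1qc. In neutrophils with none the C1qc share was 44.2% (33.5 to 55.3) of 86 UMIs in Disc1WT/WT and 41.6% (39.9 to 43.3) of 3223 UMIs in Disc1LI/LI. The C1qc share of these cells was above that of microglia in both libraries, and progenitors of Disc1LI/LI with 35.1% (31.6 to 38.7) lay between.

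**Figure D4:**
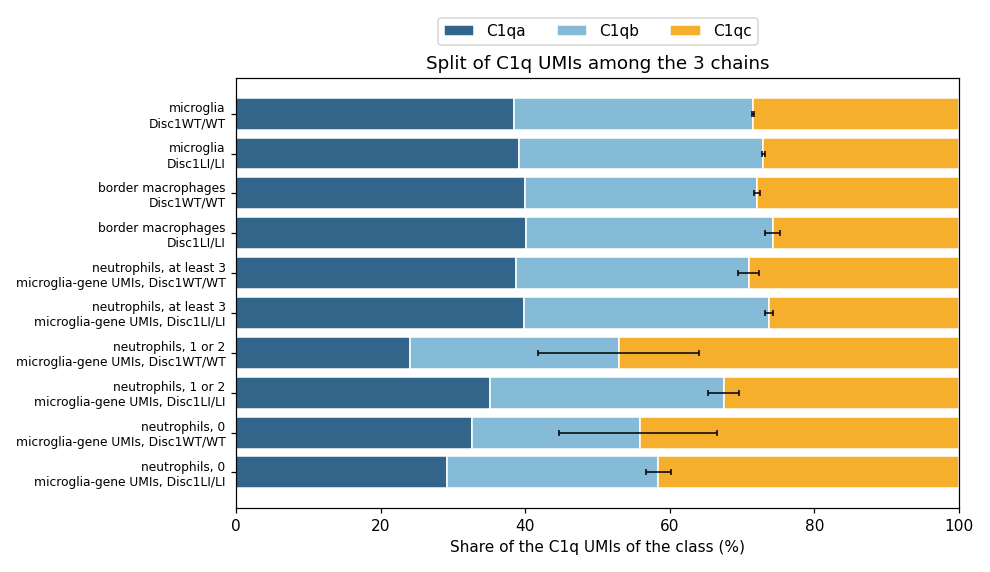
Share of the C1q UMIs of a class that came from C1qa, C1qb and C1qc (bars from 0 to 100%), for microglia, border macrophages and neutrophils grouped by their UMIs of the 6 microglia genes, in each library, with the exact binomial 95% interval of the C1qc share in black. The C1qc share is 25.8 to 28.5% in microglia and border macrophages and 41.6 to 44.2% in neutrophils with 0 microglia-gene UMIs.

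The proteases and substrates of the classical cascade were almost absent from microglia. Of the protease genes, C1ra had 19 UMIs in Disc1WT/WT and 3 in Disc1LI/LI microglia, and C1rb, C1s1 and C1s2 had 0 in both, which allows up to 0.105 and 0.370 CPM by a floor of 3 counts. Of the substrates, C2 had 16 and 5 UMIs, C4a 3 and 0, C4b 28 and 12, and C3 9 and 32 in microglia. Border macrophages held more, with C4b at 104 and 38.6, C2 at 27.3 and 11.6 and C3 at 4.09 and 34.7 CPM. Among microglia, border macrophages and neutrophils, the classes compared for it, C3 was highest in neutrophils, at 142 and 155 CPM. In microglia C3 was higher in the same library as the neutrophil markers given above, whose part in it was not tested. The list of 13 classical pathway genes also held the receptors C5ar1, C5ar2, C3ar1, Itgam and Itgb2. Only these 5 reached 50 CPM in microglia, and no protease or substrate did. Of the 5 receptors 1 was called higher and 2 lower, beside 6.87% higher and 34.6% lower among all 3565 genes. Their median log2 ratio was 0.10 against -0.13.

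Receptors for complement fragments were present and went different ways. C5ar1, the receptor of C5a, had 111 and 153 CPM in microglia, a log2 ratio of 0.46 (0.36 to 0.55). It also had 243 and 239 in neutrophils, and their part in the microglial value was not tested. C3ar1 had 215 and 163, a ratio of -0.40 (-0.49 to -0.31), and Itgam, a chain of complement receptor 3 and the gene of the CD11b sort marker, had 762 and 513, a ratio of -0.57 (-0.62 to -0.52). The other chain, Itgb2, had 181 and 210, a ratio of 0.21 (0.13 to 0.29), and C5ar2 59.0 and 63.2, a ratio of 0.10 (-0.045 to 0.24). With TMM scaling C3ar1 was no longer called, at -0.27, and Itgb2 was called, at 0.34, while C5ar1 and Itgam stayed called.

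A list of 13 genes held binding partners and receptors of C1q, and beside them Cd47 and Sirpa, described below. Of the 13 genes, 9 reached 50 CPM in microglia, none was called higher and 3 were called lower, with a median log2 ratio of -0.26. Of all 3565 genes 6.87% and 34.6% were called higher and lower, so the share lower was near that of all genes. The inhibitory receptor Sirpa had 611 and 441 CPM, a ratio of -0.47 (-0.52 to -0.42), the engulfment receptor Lrp1 211 and 162, a ratio of -0.38 (-0.47 to -0.29), and the sialic acid receptor Cd33 318 and 245, a ratio of -0.37 (-0.44 to -0.30). Lrp1, of 82988 bases, belongs to the longest group of genes, with a median of -0.47. Sirpa and Cd33, of 39394 and 20213 bases, belong to groups with medians of -0.27 and -0.0062. Trem2 and Apoe, of 7747 and 3080 bases, belong to the shortest group, with a median of 0.20. Trem2 had 2430 and 2989, a ratio of 0.30 (0.28 to 0.32), just under the limit, and was called with TMM scaling at 0.43. Apoe, which can bind C1q, had 499 and 574, a ratio of 0.20 (0.15 to 0.25) that was 0.33 with TMM scaling but -0.33 when cells meeting both rules were placed with microglia and -0.52 when at least 1% of UMIs had to come from the microglia genes. The don't-eat-me signal Cd47 (-0.27), the collagen receptor Lair1 (-0.26), Calr (0.053) and C1qbp (-0.056, and 0.073 with TMM scaling) also stayed under it. Lrp1 and Cd33 were no longer called with TMM scaling, at -0.25 and -0.24, and Sirpa was, at -0.34. Cd93 lay at 86.7 and 131 CPM in border macrophages and at 0.627 and 1.72 in microglia.

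Cr1l, a membrane regulator of C3 convertases, had 136 and 122 CPM in microglia, a log2 ratio of -0.16 (-0.26 to -0.057). None of the 22 relatives with a C1q-like globular domain reached 50 CPM in microglia or border macrophages, 13 had no UMI in microglia, and the highest microglial level among them was 2.22 CPM.

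Of 15 myeloid transcription factors, 11 reached 50 CPM in microglia, 1 was called higher and 3 lower, with a median log2 ratio of -0.14, again near the 6.87% and 34.6% and the median of -0.13 of all genes. Spi1, which encodes PU.1, had 472 and 488 CPM in microglia, a ratio of 0.047 (-0.0041 to 0.098). Maf had 795 and 646, a ratio of -0.30 (-0.34 to -0.26). Cebpb, an inflammatory regulator, had 409 and 602, a ratio of 0.56 (0.51 to 0.60), and 1706 and 2409 in neutrophils, whose part in it was not tested. Sall1, the identity factor of microglia (-0.50), Mef2c (-0.45) and Mef2a (-0.72) were called lower. Runx1 (-0.19), Irf8 (-0.11, and 0.023 with TMM scaling), Cebpa (0.019) and Irf5 (0.15) were not called. Mef2c, Mef2a and Runx1, of 163047, 141696 and 224684 bases, belong to the longest group of genes, with a median of -0.47. Sall1, of 16928 bases, belongs to the group with a median of -0.0062, and Cebpb, of 1504 bases, to the shortest group, with a median of 0.20. The part of length in these ratios was not tested. With TMM scaling Mef2c was no longer called, at -0.32, while Sall1 and Mef2a stayed lower at -0.37 and -0.59 and Cebpb higher at 0.69.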

How the data were processed

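Counts per gene and barcode were deposited by the authors as raw, unnormalized UMI counts. The submitters' processing notes name Cell Ranger, STAR and Seurat 3.0.1 with the mm10 build, and the file headers name Cell Ranger 6.1.2. Here all results were recomputed from these counts with Python 3.11.15, numpy 2.4.6 and scipy 1.17.1. UMIs were summed over the cells of a class and divided by all their UMIs (CPM). A cell meeting several rules was placed in the order neutrophils, border macrophages, microglia, other cells. Genotype ratios carry Clopper-Pearson 95% intervals, and no test was made with 1 library per genotype, so the spread between animals is unknown. Doublets and free RNA were not removed. The intervals and the fold call were tested on simulated counts that held counting error only. That test could not show whether the intervals cover the spread between cells. In the data the variance of the summed chains between cells was 5.37 and 10.15 times counting in Disc1WT/WT and Disc1LI/LI microglia. It was 10.81 and 30.87 times counting in border macrophages. Median depth was 4234 and 4566 UMIs per cell over all cells kept, and 4258 and 3779 over microglia.

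The members, classes and gene lists were chosen with earlier results of these data known. Named are the chains, all listed genes of at least 50 CPM in microglia or border macrophages, the classical pathway list at any level, the 10 genes most like the summed chains across classes, the genes shared by the 15 most correlated among microglia of each library, and Disc1. Some results under this rule are not reported here. Other genes serve as markers, or were named after their values were seen. No deposited column was left out as belonging to other samples. The alternatives, including TMM scaling (edgeR 4.0.16), are given in the closing section. Gene positions and lengths came from GENCODE for GRCm38, matched by identifier for 3564 of 3565 genes tested.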

Additional observations from a re-analysis of the deposited data

Results flagged for a closer look

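The genotype difference of the summed C1q chains had opposite signs in different classes. The log2 ratio of Disc1LI/LI over Disc1WT/WT was 0.40 in microglia, -2.045 in neutrophils and -2.48 in the other cells. The difference between the classes was not tested, since each genotype has 1 library. The make-up of the other cells differed, since monocytes were 1300 of 2204 in Disc1LI/LI and 43 of 550 in Disc1WT/WT. Within them the ratio over all cells was -0.87 in monocytes, -0.33 in T and NK, -1.26 in unassigned and -1.44 in antigen-presenting cells, whose markers differed. With 0 microglia-gene UMIs monocytes had 420 and 166 CPM, T and NK cells 349 and 598, and unassigned cells 2854 and 269. Antigen-presenting cells had 11885 and 1843. With at least 3 the levels were, in that order, 3893 and 8089, 12471 and 13123, 22283 and 23324, and 14856 and 15714. The part of microglial RNA in these ratios was not tested. In neutrophils without any UMI of the 6 microglia genes the levels were 329 and 226 CPM, and in those with at least 3 such UMIs 12654 and 11270. The latter were 29 of 116 neutrophils in Disc1WT/WT and 219 of 3622 in Disc1LI/LI.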

How the results depend on the processing

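Every log2 ratio of the summed chains past the fold limit kept its direction under the alternatives run. With 1 library per genotype the spread between animals is unknown, and intervals are so narrow that many alternatives lie outside them. No paired analysis was possible because each genotype has 1 library. The cause of the shifts was not tested. The genotype ratio in microglia, 0.40, became 0.42 with at least 1% and 0.35 with at least 0.25% of microglia-gene UMIs, 0.53 under TMM, 0.41 as a mean over cells and 0.42 after thinning, and, in alternatives chosen after seeing the data, 0.46 without cells holding S100a8 or S100a9 UMIs and 0.42 without cells holding Cd74 or H2-Aa UMIs. The border macrophage ratio over microglia in Disc1WT/WT, -0.15, became -0.081 with at least 4 border genes, -0.25 with cells meeting more than 1 rule left out, -0.25 with microglia placed first, -0.018 under TMM, -0.17 as a mean over cells and -0.13 after thinning, and in Disc1LI/LI, -0.48, it became -0.42 with at least 0.25% of microglia-gene UMIs, -0.34 under TMM, -0.42 as a mean over cells and -0.40 after thinning. The genotype ratio in border macrophages, 0.068, was added after seeing the data and became -0.023 with at least 4 border genes, 0.14 with cells meeting more than 1 rule left out or microglia first, 0.24 under TMM, 0.16 as a mean over cells and 0.14 after thinning. The neutrophil ratio over microglia in Disc1WT/WT, -2.28, became -2.62 with at least 10% of S100a8 and S100a9 UMIs, -2.39 with cells meeting more than 1 rule left out, -1.39 under TMM, -1.87 with totals without hemoglobin, mitochondrial, S100a8 and S100a9 UMIs, -2.98 as a mean over cells, -3.04 after thinning and -2.75 without the 5% of cells with the most UMIs. In Disc1LI/LI, -4.72, it became, in the same order, -4.91, -4.78, -3.40, -4.19, -5.11, -5.10 and -4.55, and -4.75 and -4.66 with at least 1% and 0.25% of microglia-gene UMIs. Genes higher in Disc1LI/LI microglia, 245 of 3565, numbered 1602 of 13094 genes of at least 10 UMIs and 680 of 3565 under TMM. They numbered 508 of 3617 without cells holding S100a8 or S100a9 UMIs, which kept 157 of 1943 Disc1LI/LI cells. Genes lower, 1233, numbered 5095, 837 and 1405 of the same totals. Higher genes were 16.6% of calls, and 44.8% under TMM, which shifted ratios by 0.13. C1qa and C1qb passed the fold limit under all 15 alternatives and C1qc under 5 of 15. Without the 12 shared barcodes the 6 ratios stayed within their intervals.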

Other observations

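The higher C1q level of Disc1LI/LI microglia was seen in each state of microglia that had cells in both libraries, by limits chosen after the data were read. Microglia with a Fos UMI, a sign of an immediate early response, had 26556 CPM of C1q in 564 Disc1WT/WT cells and 34410 in 372 Disc1LI/LI cells, a log2 ratio of 0.37 (0.36 to 0.39), and those without 27341 and 36324, a ratio of 0.41 (0.40 to 0.42). Microglia with UMIs of at least 3 of 8 interferon-response genes had 25785 in 47 cells and 30432 in 19 cells, a ratio of 0.24 (0.18 to 0.30). At least 3 of 7 genes of the disease-associated state were found in 19 Disc1WT/WT microglia, with 26647, and in 0 of 1943 Disc1LI/LI microglia, where a floor of 3 counts allows a share of up to 0.154%. The median depth of those 19 cells was 8312 UMIs, against 3779 in Disc1LI/LI microglia.

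Within each library C1q was lower in cells with more Malat1 and in the deepest cells. Microglia with under 1.5% of UMIs from Malat1 had 30373 and 39749 CPM, and those with at least 3% had 26406 and 34253, with log2 ratios between the genotypes of 0.39 and 0.38. Between these groups of Disc1WT/WT cells C1qb went from 11068 to 8549, C1qa from 11196.5 to 10250 and C1qc from 8108 to 7607. In Disc1LI/LI C1qb went from 14118 to 11372, C1qa from 15323.5 to 13506 and C1qc from 10307 to 9375. Cells under 2500 UMIs had 27843 and 37794, a ratio of 0.44 (0.41 to 0.47), and cells from 6000 UMIs 26766 and 33489, a ratio of 0.32 (0.31 to 0.34).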
